A study of Mus musculus with 11 samples.

Results

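The mitochondrial chromosome of the mouse carries 37 genes, and all 37 were rows of the gene table, as the rows whose symbol begins with mt-, out of 36666 genes. They were sorted by RNA type into 13 mRNAs, 2 rRNAs and 22 tRNAs, and by the strand that codes for them. The heavy strand codes for 12 mRNAs, the 2 rRNAs and 14 tRNAs, which are annotated on the plus strand of the reference. The light strand codes for 1 mRNA, mt-Nd6, and 8 tRNAs, which are annotated on the minus strand. Positions are those of the mm9 build, in which chromosome M is 16299 bases long.

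Mitochondrial DNA is transcribed on both strands into long RNAs that span many genes. The tRNAs lie between most of the mRNAs and rRNAs, and their excision releases the RNAs on either side. Transcription starts in the control region, the main stretch without genes, beside which mt-Tp and mt-Tf lie, and in brain, a tissue rich in mitochondria, the resulting mRNAs are among the most abundant.

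RNA-Seq was performed on cerebral tissue, without the cerebellum, from 11 male C57/Bl6 mice aged 1 year. The 7 mutator mice carried Polg D257A on both alleles (D257A/D257A), which impairs proofreading by the mitochondrial DNA polymerase, so that their mitochondrial DNA gathers mutations. The 4 controls were littermates, of which mice 205, 239 and 246 were WT/WT and mouse 237 was WT/D257A, so the control group was not free of the mutant allele. The allele is carried in the whole body from conception and no treatment was given. Whole tissue was used, so fewer cells of a type and less RNA per cell cannot be told apart. The libraries were made from poly(A)+ RNA by random priming with a kit that does not keep the strand, and were read as 100-base pairs. Strand therefore refers to the annotation of a gene throughout, and reads of 1 strand could not be told from reads of the other.

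Gene counts per mouse summed to between 28249345 and 121182250 in the controls and to between 37821243 and 91219204 in the mutators. A count of 0 allows up to 0.106 CPM (counts scaled to library size) in the smallest library, mouse 246, and up to 0.0248 in the largest, mouse 205, as 3 counts of the total and for counting error only. Mutator mouse 248 stood apart, with 3.00 gene counts per listed aligned read against 0.744 to 0.775 in the other 10 mice. Its listed total, 30449029 aligned reads, is below its 91219204 gene counts and so may not cover the whole library, in which case the ratio says nothing of the library itself. Results that rest on this mouse are also given without it. The tissue label was checked against fixed markers. Of the 5 neuron markers (Snap25, Syt1, Slc17a7, Gad1 and Tubb3) the summed level was 5336 to 5748 CPM in the controls and 5161 to 5590 in the mutators. The 4 cerebellar markers summed to between 5.78 and 14.9 CPM and the 3 liver markers to between 0.254 and 0.737 CPM over all mice, and each marker of every list had counts in at least 1 mouse. Mutator mice 211 and 217 were higher for the cerebellar marker Cbln3, at 2.48 and 4.54 CPM against 0.545 to 1.17 CPM in the other mice. For the cerebellar marker Gabra6 they had 1.01 and 1.46 CPM against 0 to 0.106 CPM. Whether cerebellar tissue was present in these samples was not tested.

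Counts on the 37 rows made up 5.01%, 4.93%, 4.38% and 5.54% of all gene counts in control mice 205, 237, 239 and 246. In the mutators they made up between 4.65% and 5.60%, with a median of 5.23%. The groups overlapped, and the lowest share was that of a control, mouse 239. Group means were 4.97% ± 0.48 for the controls and 5.19% ± 0.30 for the mutators (SD, n = 4 and 7), a difference smaller than the SD of the controls. Of the mitochondrial counts, the heavy-strand mRNAs held 86.2% ± 0.53 in the controls and 87.1% ± 0.97 in the mutators (SD, n = 4 and 7). The 2 rRNAs held 11.9% ± 0.66 and 10.4% ± 0.92, mt-Nd6 held 1.92% ± 0.20 and 2.22% ± 0.14, and the tRNAs held 0.0171% ± 0.0018 and 0.256% ± 0.053 in the same order. The 9 genes of the light strand, whose counts were mostly those of mt-Nd6, with mt-Tp adding to them in the mutators, together held between 1.68% and 2.16% of the mitochondrial counts in the controls and between 2.28% and 2.67% in the mutators, so the groups did not overlap. Means were 1.94% ± 0.20 and 2.47% ± 0.14 (SD, n = 4 and 7). This share is no measure of the RNA of that strand, since the strand of the reads was not kept and 5 of these genes were at 0 in all mice.

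In the test of all genes with edgeR, 16 of the 37 rows passed the filter on low counts. They were 11 mRNAs, the 2 rRNAs and 3 tRNAs, and 12 of them belong to the heavy and 4 to the light strand. Of these, 1 gene, mt-Tp, had an edgeR adjusted p under 0.05, and it was higher in the mutators, where 1.24% of the 17983 genes tested had one in either direction, 0.439% being higher and 0.801% lower. At an unadjusted p under 0.05 there were 7 of the 16, against 15.8% of all genes tested. The CPM of the groups did not overlap for 2 of the 16, mt-Tp and mt-Co2, against 2.62% of all genes tested. The median log2 fold change of the 16 was 0.098, against 0.0014 for all genes tested. By strand, the medians were 0.064 for the 12 heavy-strand genes and 0.19 for the 4 light-strand genes. Since which rows passed the filter depends on their counts, these medians do not describe all 37 genes.

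**Figure D1:**
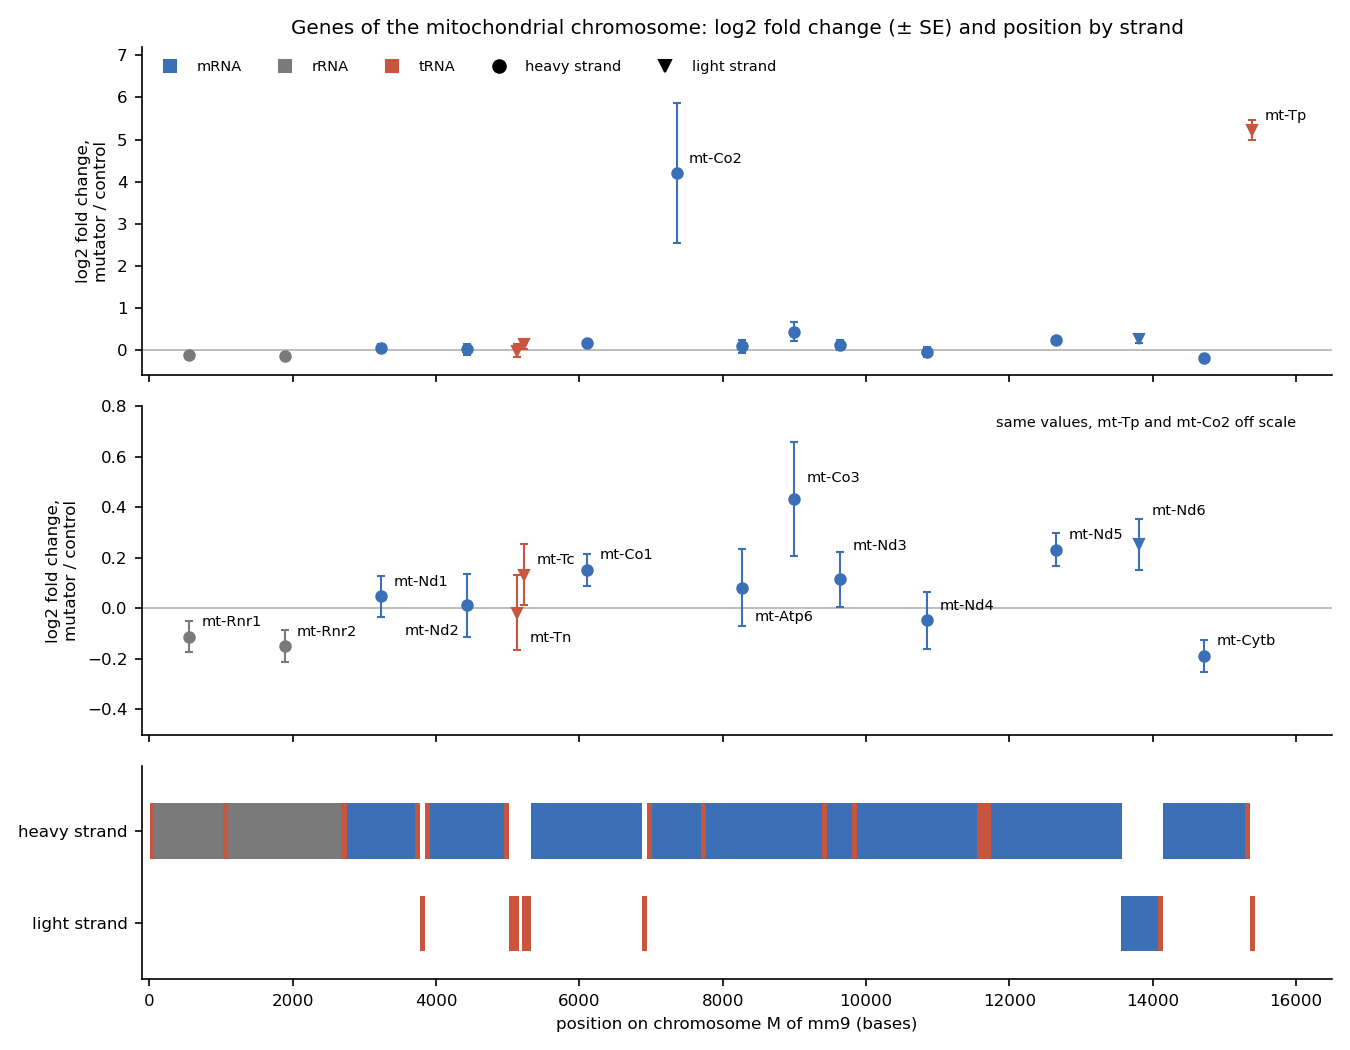
Log2 fold change of the 16 mitochondrial genes tested (mutator over control, points, with bars for the standard error, SE, from edgeR) against position on chromosome M, with the 37 genes drawn to scale by coding strand below. Circles are heavy-strand and triangles light-strand genes, colours give the RNA type, and the middle panel shows the same values with mt-Tp (5.23) and mt-Co2 (4.20) off its axis.

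Few of the tRNA genes had counts. Of the 22 tRNA genes, 19 had 0 counts in all 11 mice, among them all 14 of the heavy strand and 5 of the 8 of the light strand. The other 3, mt-Tp, mt-Tc and mt-Tn, are light-strand tRNAs for proline, cysteine and asparagine. To see which genes could receive a count at all, each 100-base stretch of the chromosome was compared with the gene map, since a read that touches more than 1 gene is not counted by the usual setting of the counting program. The setting the authors used is not given in the sources used here, and the comparison takes each read on its own and aligned over its full length. The 19 tRNA genes at 0 had no stretch that touched them alone. For all but mt-Tf, this is because neighbouring genes abut them or lie a few bases away. The gene mt-Tf starts at base 1 of the reference sequence and borders the control region on that side. Stretches that run across the ends of the reference sequence were not considered, so mt-Tf could gain none there. The 3 tRNA genes with counts were the ones that had such stretches, 67 for mt-Tp, 6 for mt-Tn and 1 for mt-Tc. If the strand had been used in counting, 13 tRNA genes would have had a stretch of their own, and 10 of these were at 0 in every mouse. A count of 0 on these 19 genes is therefore no measure of their RNA.

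Of these 3 genes, mt-Tp is the one that differed between the groups. It lies on the minus strand from 15356 to 15422 of chromosome M, 67 bases long, between mt-Tt, which abuts it, and the control region of 877 bases. Raw counts on mt-Tp were 502, 96, 236 and 74 in control mice 205, 237, 239 and 246, and between 4283 and 16168 in the mutators. Normalised, these were 4.11, 2.21, 3.78 and 2.69 CPM in the controls and between 92.5 and 174.01 CPM in the mutators, with a median of 122.2. Each of the 7 mutators lay far above each control, and the WT/D257A mouse 237 was the lowest of all 11. Group means were 3.20 ± 0.89 and 126.4 ± 24.5 CPM (SD, n = 4 and 7), a 39.5-fold ratio. The difference was 5.23 on the log2 scale (standard error, SE, 0.24, edgeR adjusted p = 3.5e-05), and mt-Tp ranked 1 by p among all genes tested, a rank that was 1 to 8 over the alternatives. Without mouse 248, which had the highest value, it was 5.13 (edgeR adjusted p = 2.7e-06). Without mouse 237, so against WT/WT mice alone, it was 5.09 (edgeR adjusted p = 0.00011).

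Under this setting, a read counted on mt-Tp cannot lie inside the gene, which is shorter than the read. Of its 100 bases, at least 33 and up to 99 must lie in the control region. The sequence is shown because it is what such reads must hold, namely part of the 67 bases of the gene, in capitals, and the neighbouring control region, in lower case. It covers 15356 to 15521 of chromosome M and is written 5′ to 3′ on the minus strand, the coding strand of mt-Tp.
mt-Tp with 99 bases of the control region: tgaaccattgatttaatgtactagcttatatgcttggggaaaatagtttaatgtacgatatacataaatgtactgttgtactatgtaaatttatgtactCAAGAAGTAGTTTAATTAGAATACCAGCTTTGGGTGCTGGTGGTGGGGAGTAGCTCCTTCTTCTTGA
Under this setting, and with reads aligned over their full length, counts on mt-Tp come from molecules that run across its border with the control region. This was not tested on the reads themselves. As the kit did not keep the strand, the light and the heavy strand cannot be told apart as the source of these counts.

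Both other tRNA genes with counts were close to equal between the groups. Counts on mt-Tc were 2.81, 3.09, 2.50 and 3.23 CPM in control mice 205, 237, 239 and 246 and between 2.63 and 3.69 CPM in the mutators, with a median of 3.17. Counts on mt-Tn were 2.44, 2.37, 1.81 and 2.91 CPM in the same controls and between 1.90 and 2.78 CPM in the mutators, with a median of 2.43. For both genes the groups overlapped and no mouse stood apart. The log2 fold changes were 0.13 for mt-Tc (SE 0.12, edgeR adjusted p = 0.638) and -0.018 for mt-Tn (SE 0.15, edgeR adjusted p = 0.972). In the controls mt-Tp was of the same order as both, with 40.5% to 87.7% as many counts as mt-Tc and mt-Tn together, and in the mutators it had 1552% to 3375%.

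**Figure D2:**
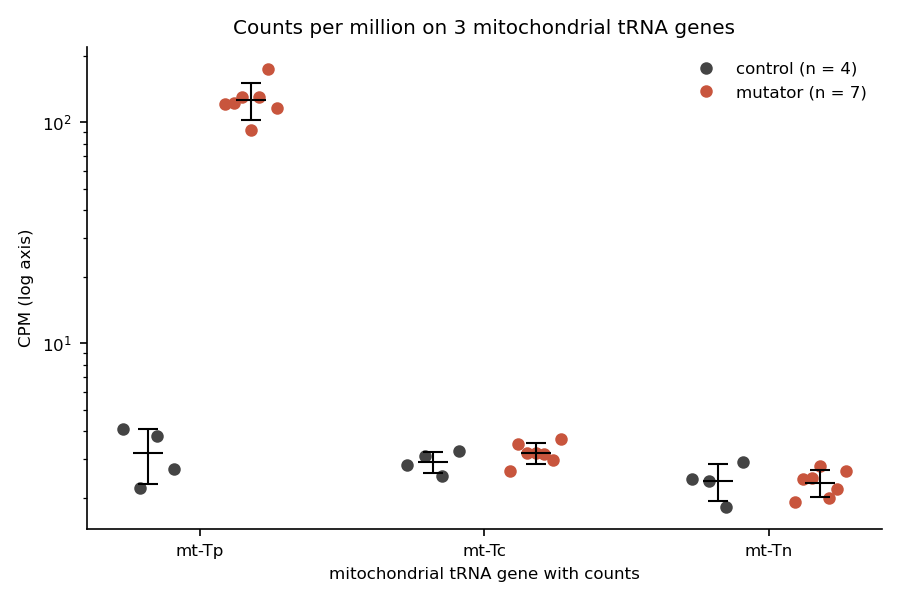
CPM on the 3 mitochondrial tRNA genes with counts in each mouse (points, log axis), with the mean and SD of the 4 controls (grey) and the 7 mutators (red). For mt-Tp the mutators lie between 92.5 and 174.01 CPM and the controls between 2.21 and 4.11, while for mt-Tc and mt-Tn the groups overlap.

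The genes mt-Tc and mt-Tn flank the other stretch without genes that is of some length, 32 bases from 5160 to 5191, where replication of the light strand begins. Under the same setting, a read counted on either gene must hold bases of this gap. The stretch, whose gap is known to fold into a stem and loop, is shown because these reads lie in it, and runs from 5089 to 5257 of chromosome M, written 5′ to 3′ on the minus strand. Capitals mark mt-Tc first and then mt-Tn, and lower case marks the gap.
mt-Tc, gap and mt-Tn: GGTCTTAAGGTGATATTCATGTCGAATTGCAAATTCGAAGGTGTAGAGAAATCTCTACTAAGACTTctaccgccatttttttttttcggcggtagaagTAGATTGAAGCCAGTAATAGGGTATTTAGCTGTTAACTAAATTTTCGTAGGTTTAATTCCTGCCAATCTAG
Per 100-base stretch that only the gene could receive, mt-Tp had 0.048 ± 0.013 CPM in the controls and 1.89 ± 0.37 CPM in the mutators (SD, n = 4 and 7). On the same scale mt-Tn had 0.397 ± 0.075 and 0.390 ± 0.054 CPM, and mt-Tc, with 1 stretch, had 2.91 ± 0.32 and 3.18 ± 0.34 CPM. On this scale the level of mt-Tp was thus below that of mt-Tn in the controls and above it in the mutators. The scale takes each read on its own, although the libraries were read as pairs. Levels of different tRNA genes on it may therefore not be comparable.

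The light strand codes for a single mRNA, mt-Nd6, a subunit of complex I (13552 to 14070, minus strand). It had 978.1, 1062, 726.7 and 1089.9 CPM in control mice 205, 237, 239 and 246 and between 987.6 and 1273 CPM in the mutators, with a median of 1139. Mouse 239 was the lowest of all mice, the other controls lay within or just under the range of the mutators, and the groups overlapped. The log2 fold change was 0.25 (SE 0.10), which did not pass the threshold (edgeR adjusted p = 0.247), and it was 0.14 without mouse 239. Its neighbour on the opposite strand, mt-Nd5, also a complex I subunit (11742 to 13565, plus strand), shares 14 bases with it. It had 4575, 4783, 3695 and 4744 CPM in the same controls and between 4691 and 5718 CPM in the mutators, with a median of 5237. All but mouse 207 of the mutators lay above the highest control, and mouse 239 was again the lowest. The log2 fold change of mt-Nd5 was 0.23 (SE 0.065, edgeR adjusted p = 0.0807), and 0.15 without mouse 239. With no filter on low counts its edgeR adjusted p was 0.0440 and with DESeq2 the adjusted p was 0.0349, so its call depended on the method.

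Relative to the sum of the 12 heavy-strand mRNAs, mt-Nd6 had 2.30%, 2.47%, 1.94% and 2.21% as many counts in control mice 205, 237, 239 and 246. In the mutators the ratio lay between 2.32% and 2.85%, with a median of 2.55%. The ratio was above that of the highest control in 5 of the 7 mutators, and the groups overlapped. The mean log2 ratio was higher by 0.20 in the mutators (2-sided exact permutation test over 330 assignments, p = 0.0152, adjusted p = 0.0354 over the 7 ratios tested). The adjusted p of this exact permutation test reached 0.05 or more in 8 of 11 tests with 1 mouse left out. These were the tests without mice 205, 239, 246, 207, 236, 240, 248 or 249, and the highest was 0.175, without mouse 239. The log2 difference was 0.13 without mouse 239 and 0.17 to 0.21 without the others of these mice. Tests with a mouse left out have fewer assignments than 330, so their smallest possible p is higher. Of the 12 mRNAs, 5 cannot be measured from these counts, as described below. With the nuclear copies Gm10925 and Gm10222 added to the mRNAs, the difference was 0.19 and did not pass (exact permutation test, adjusted p = 0.0583). With the mRNAs in the copy on chromosome 1 left out, or mt-Co1 left out, it was 0.26 and 0.27 (exact permutation test, adjusted p = 0.00707 in both). Relative to mt-Nd5 alone, the ratio of mt-Nd6 did not follow. It was 21.4%, 22.2%, 19.7% and 22.98% in the controls and between 21.01% and 23.3% in the mutators, a log2 difference of 0.029 (2-sided exact permutation test, p = 0.561, adjusted p = 0.561). Since reads of both strands are pooled, the counts on mt-Nd6 may hold heavy-strand RNA that runs on past mt-Nd5, and its share was not tested.

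The 2 rRNAs, mt-Rnr1 (70 to 1024) and mt-Rnr2 (1094 to 2675), are the RNAs of the mitochondrial ribosome and come first on the heavy strand. Counts on mt-Rnr1 were 2426, 2102, 2119 and 2557 CPM in control mice 205, 237, 239 and 246 and between 1900 and 2385 CPM in the mutators, with a median of 2113. Counts on mt-Rnr2 were 3738, 3426, 3323 and 3982 CPM in the same controls and between 2980 and 3780 CPM in the mutators, with a median of 3250. For both the groups overlapped, mouse 240 was the lowest and mouse 246 the highest. The log2 fold changes were -0.11 for mt-Rnr1 (SE 0.063, edgeR adjusted p = 0.401) and -0.15 for mt-Rnr2 (SE 0.063, edgeR adjusted p = 0.241), and that of mt-Rnr1 was -0.057 without mouse 246. Relative to the heavy-strand mRNAs, the 2 rRNAs together had 14.5%, 12.8%, 14.5% and 13.3% as many counts in the controls and between 10.1% and 13.8%, median 11.9%, in the mutators. The ratio was below that of the lowest control in 5 of 7 mutators, with mice 207 and 249 inside the range of the controls. The mean log2 ratio was lower by 0.20, that is, -0.20 (2-sided exact permutation test, p = 0.0364, adjusted p = 0.0636), which did not pass the threshold. It was -0.13 with mt-Co1 left out of the mRNAs (adjusted p = 0.249). The ratio of mt-Rnr1 to mt-Rnr2 had a log2 difference of 0.040 (2-sided exact permutation test, p = 0.306, adjusted p = 0.368), and of 0.023 without mouse 237. As the libraries were poly(A)+, these values are for the rRNA that was captured and not for all rRNA.

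**Figure D3:**
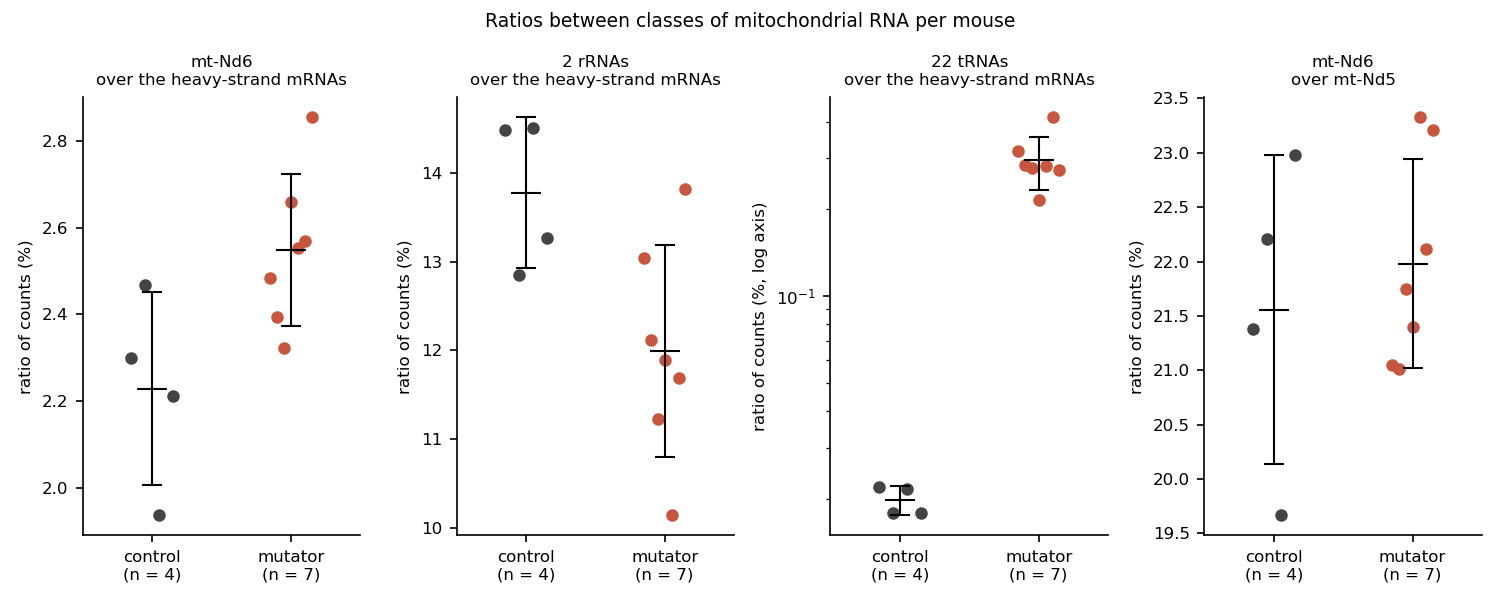
Ratios of counts between classes of mitochondrial RNA in each mouse (points), in percent, with the mean and SD of the 4 controls and the 7 mutators. The tRNA ratio has a log axis and lies between 0.0178% and 0.0220% in the controls and between 0.214% and 0.414% in the mutators, while the groups overlap in the other panels.

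The 22 tRNA genes together had 0.0220%, 0.0178%, 0.0216% and 0.0179% as many counts as the heavy-strand mRNAs in control mice 205, 237, 239 and 246. In the mutators they had between 0.214% and 0.414%, with a median of 0.281%, and each mutator lay above each control. The mean log2 ratio was higher by 3.87 (2-sided exact permutation test, p = 0.00303, which 330 assignments cannot go below, adjusted p = 0.0106). With mt-Tp left out of the tRNAs, a comparison chosen after seeing the data, the log2 difference was -0.0043 (2-sided exact permutation test, adjusted p = 0.936), so this ratio carries no more than the result for mt-Tp. The planned ratio of light-strand to heavy-strand tRNAs could not be formed, as the heavy-strand tRNAs were at 0 in all mice.

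Of the 12 heavy-strand mRNAs, 10 had enough counts to be tested and 0 passed the threshold with edgeR. At an unadjusted p under 0.05, the whole set of 11 mRNAs tested, mt-Nd6 included, held 5, against 15.8% of all genes tested. Among those that could be measured, which leaves out 5 described below, the most abundant was mt-Co1, the catalytic subunit of complex IV. It had 19236, 18967, 17505 and 21492 CPM in control mice 205, 237, 239 and 246. In the mutators it had between 19109 and 23848 CPM, with a median of 21030.0 (log2 fold change 0.15). The groups overlapped, and mouse 239 was the lowest. Its share of all mitochondrial counts was 37.8% to 40.1% in the controls and 39.2% to 42.7% in the mutators.

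The complex III subunit mt-Cytb (14145 to 15288), the last mRNA before the control region, had 7941, 8483, 7037 and 9290 CPM in the same controls and between 6445 and 7680 CPM in the mutators, with a median of 7174. Its log2 fold change was -0.19 (SE 0.064, edgeR adjusted p = 0.143), with the groups overlapping through mouse 239. Among the complex I subunits, mt-Nd1 had 4573, 4418, 4186 and 5947 CPM in the controls and between 4523 and 5510 CPM in the mutators, with a median of 4964 (log2 fold change 0.047). For mt-Nd2 these were 3464, 3523, 2919 and 4480 CPM, and between 2751 and 4093 CPM with a median of 3726 (log2 fold change 0.011). For mt-Nd4 they were 2754, 2840 and 2161 CPM in mice 205, 237 and 239 and 3314 CPM in mouse 246, and between 2197 and 3152 CPM with a median of 2761 in the mutators (log2 fold change -0.048). In these 3 mRNAs the control mice 239 and 246 were the lowest and the highest of the controls, and the groups overlapped. The ratio of mt-Nd5 plus mt-Cytb to mt-Nd1 plus mt-Nd2, the last mRNAs of the heavy strand against the first, was 155.7%, 167.1%, 151.1% and 134.6% in the controls and between 133.1% and 153.1% in the mutators. Its log2 difference was -0.063 (2-sided exact permutation test, p = 0.315, adjusted p = 0.368), and it lay between -0.12 without mouse 246 and -0.016 without mouse 237.

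The 6 mRNAs between mt-Co1 and mt-Nd4 had 0 to 1798 counts per mouse, where the other 7 had 29991 or more. All 6 lie within positions 6390 to 11042, a stretch of 4654 aligned bases that has a copy on chromosome 1 (24618374 to 24623027, minus strand) with 99.936% identity. The stretch differs from the copy at 2 bases and by 1 base inserted in the copy at 9829, within mt-Tr. Substitutions are given with the mitochondrial base first and counted from base 1 of chromosome M, and they were A6393T in mt-Co1 and T9461C in mt-Nd3. Of the 100-base stretches that touch 1 mRNA alone, 0 of 589 in mt-Co2, 0 of 538 in mt-Atp6, 0 of 684 in mt-Co3, 0 of 63 in mt-Atp8 and 0 of 192 in mt-Nd4l were free of an exact match in the nuclear genome, so single reads of these genes cannot be told apart from nuclear ones. In mt-Nd3 it was 3 of 250, in mt-Nd4 503 of 1273, in mt-Co1 1001 of 1444 and in mt-Nd2 907 of 937, and in mt-Nd1, mt-Nd5, mt-Nd6 and mt-Cytb all of them. The base near the start of mt-Nd3 is shown in capitals within 25 bases, since it decides whether a read of that gene has a single place in the genome.
mtDNA, 9449 to 9473 of chromosome M, plus strand: gaagagagtaatTaacctgtacact
nuclear copy, 24619944 to 24619968 of chromosome 1, minus strand: gaagagagtaatCaacctgtacact

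Genes annotated in the copy had counts as well, and whether their reads came from mitochondrial or nuclear RNA could not be told. Gm10925 (chromosome 1, 24620814 to 24621627, minus strand) is identical over 814 bases to positions 7790 to 8603, which hold most of mt-Atp8 and mt-Atp6, the ATP synthase subunits. It had 9473, 9073, 8110 and 11118 CPM in control mice 205, 237, 239 and 246 and between 9001 and 11201 CPM in the mutators, with a median of 9945. On mt-Atp6 itself the values were 3.80, 2.88, 3.30 and 4.54 CPM in the controls and between 2.98 and 5.39 CPM in the mutators, with a median of 3.80. In every mouse, Gm10925 thus far exceeded the mitochondrial gene whose sequence it shares. Its log2 fold change was 0.11 (SE 0.073, edgeR adjusted p = 0.485), and that of mt-Atp6 was 0.081 (SE 0.15, edgeR adjusted p = 0.846). Gm10222 (24619243 to 24619539, minus strand), identical over 297 bases to mt-Nd4l, had 1029.5, 1004, 762.2 and 1173 CPM in the controls and between 845.2 and 1238 CPM in the mutators, with a median of 1004. The groups overlapped, and the log2 fold change was 0.048 (SE 0.12, edgeR adjusted p = 0.888). On mt-Nd4l there were 0 to 3 counts and on mt-Atp8 0 to 4 counts per mouse, under or near the limit that a count of 0 allows. With both copies added to the 37 rows, which was chosen after seeing the data, the share of all counts was 6.00% ± 0.60 in the controls and 6.32% ± 0.38 in the mutators (SD, n = 4 and 7).

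The low counts left on these mRNAs are uncertain for the same reason. For mt-Co2, a complex IV subunit, they were 0.483, 0.461, 0.144 and 0.509 CPM in control mice 205, 237, 239 and 246, and 23.9 CPM in mouse 207 and 21.5 CPM in mouse 240, with 0.565 to 1.22 CPM in the other mutators. The groups did not overlap, but the gap between the highest control and the lowest mutator was 0.509 against 0.565 CPM, and mice 207 and 240 set the mean. The difference was 4.20 on the log2 scale (SE 1.67, edgeR adjusted p = 0.266). It was 3.48 without mouse 207 and 3.62 without mouse 240 (edgeR adjusted p = 0.288 and 0.370), and with DESeq2 the adjusted p was 0.0152. For mt-Co3, also of complex IV, the values were 1.31, 0.760, 0.609 and 1.20 CPM in the controls and between 0.798 and 1.54 CPM in the mutators, with a median of 1.35 (log2 fold change 0.43). For mt-Nd3 they were 9.91, 9.51, 10.1 and 14.4 CPM in the controls and between 9.62 and 13.5 CPM in the mutators, with a median of 11.5 (log2 fold change 0.11). Mice 207 and 240, high for mt-Co2, were not jointly high for mt-Co3 or mt-Nd3.

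A second copy, on chromosome 2 (22442808 to 22446054, minus strand), is 97.362% identical to positions 4441 to 7699. It holds 3 pseudogenes of the table. Gm13340, which copies mt-Co1, had 3.58, 3.91, 2.63 and 4.87 CPM in control mice 205, 237, 239 and 246 and between 8.48 and 21.8 CPM in the mutators, with a median of 11.5. As a share of the counts on mt-Co1 it was 0.0150% to 0.0227% in the controls and 0.0444% to 0.105% in the mutators, the highest being mouse 248. The groups did not overlap in either measure. The log2 fold change was 1.73 (SE 0.30, edgeR adjusted p = 0.0297), and 1.51 without mouse 248 (edgeR adjusted p = 8.1e-05). Gm13341, which copies mt-Co2 (7013 to 7696) at 95.906% identity, had 1.60, 1.13, 1.09 and 2.14 CPM in the controls and between 1.57 and 3.89 CPM in the mutators, with a median of 2.80. The groups overlapped through mouse 207, the lowest mutator, and the log2 fold change was 0.98 (SE 0.23, edgeR adjusted p = 0.0488). This p exceeded 0.05 in 9 of 11 fits with 1 mouse left out and reached 0.228 without mouse 237, while that of Gm13340 exceeded it in 6 of 11 and reached 0.135 without mouse 237. The log2 fold changes in these fits stayed between 0.85 and 1.15 for Gm13341 and between 1.51 and 1.85 for Gm13340, and with DESeq2 the adjusted p was 0.00147 and 1.0e-06. Gm13339, which copies part of mt-Nd2, had 1 to 12 counts and was not tested. The copy on chromosome 13 (85266167 to 85267120, 95.183% identical to part of mt-Nd5) holds no annotated gene. Reads of such copies and of the mitochondrial genes can be exchanged where they differ by few bases, and how many were was not tested.

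Per 100-base stretch that was free of other genes and of nuclear copies, mt-Co1 had 19.3 ± 1.6 CPM in the controls and 21.4 ± 1.6 CPM in the mutators (SD, n = 4 and 7). It was followed by mt-Cytb with 7.80 ± 0.90 and 6.85 ± 0.41 CPM, mt-Nd1 with 5.59 ± 0.93 and 5.77 ± 0.41 CPM, and mt-Nd4 with 5.50 ± 0.94 and 5.32 ± 0.62 CPM. Levels of mt-Nd2 (3.97 ± 0.72 and 3.997 ± 0.51 CPM) and mt-Nd3 (3.66 ± 0.76 and 3.91 ± 0.45 CPM) did not differ beyond their spread. The value of mt-Nd3 rests on 3 such stretches, however. On mt-Atp6, with 0 such stretches, there were still 2.88 to 5.39 CPM, so counts can also fall outside them. The level of mt-Nd3 may therefore not be comparable with the others. The lowest of the mRNAs with such stretches were mt-Nd5 with 2.60 ± 0.30 and 3.05 ± 0.19 CPM and mt-Nd6 with 2.38 ± 0.41 and 2.83 ± 0.25 CPM, which differed by less than the SD of mt-Nd6 in each group. The rRNAs had similar means in the controls and lower means than both in the mutators, mt-Rnr1 with 2.69 ± 0.26 and 2.49 ± 0.19 CPM and mt-Rnr2 with 2.47 ± 0.21 and 2.23 ± 0.19 CPM. The level of mt-Nd6 per stretch was thus close to that of its opposite-strand neighbour in both groups. The order of mt-Co1, mt-Cytb and mt-Nd1 was that of both groups' means, and mt-Nd1 and mt-Nd4 could not be ordered beyond their spread.

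The proteins that make, cut and stabilise mitochondrial RNA are coded in the nucleus. Of a list of 27 such genes, all 27 were tested, and 0 passed the threshold with edgeR or with DESeq2. Of all genes tested, 1.24% passed with edgeR, and 615 of 17377 passed with DESeq2. At an unadjusted p under 0.05 with edgeR there were 3 of the 27, against 15.8% of all genes tested. Their median log2 fold change was 0.016, against 0.0014 over all genes tested, and the values lay between -0.14 and 0.14. The 4 with the lowest p were Pnpt1, Fastk, Fastkd1 and Tfam.

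Pnpt1, which codes for the polynucleotide phosphorylase that degrades mitochondrial RNA, had 26.1 ± 1.4 CPM in the controls and 28.96 ± 1.5 CPM in the mutators (SD, n = 4 and 7) (log2 fold change 0.14, SE 0.055, edgeR adjusted p = 0.195). Fastk, whose product binds the mRNA of mt-Nd6, had 73.2 ± 5.3 and 66.5 ± 3.8 CPM (log2 fold change -0.14, SE 0.054, edgeR adjusted p = 0.221). Fastkd1, of the same family, had 15.8 ± 1.2 and 17.4 ± 0.60 CPM (log2 fold change 0.14, SE 0.062, edgeR adjusted p = 0.275). Tfam, the packaging and transcription factor of mitochondrial DNA, had 34.2 ± 1.5 and 36.8 ± 1.9 CPM (log2 fold change 0.11, SE 0.053, edgeR adjusted p = 0.323). In each of these genes the groups overlapped. By role, the 9 transcription genes, Polrmt among them, had a median log2 fold change of 0.035, and the 4 genes of tRNA excision (Trmt10c, Hsd17b10, Prorp and Elac2) one of -0.029. The 6 genes of poly(A) tails and stability, Lrpprc among them, had a median of 0.048 and the 8 granule and FASTK genes one of 0.0061.

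Markers of the cell types in the tissue were read beside these values, and 0 of the genes in these lists passed the threshold with edgeR. At an unadjusted p under 0.05 there were 1 of 5 neuron, 2 of 5 astrocyte, 2 of 5 oligodendrocyte, 4 of 5 microglia, 3 of 5 endothelial, 2 of 5 choroid plexus and 0 of 5 red blood cell markers, against 15.8% of all genes tested. The microglia markers, of which Csf1r was the most abundant, summed to 186.4 to 236.01 CPM in the controls and 174.0 to 205.8 CPM in the mutators. The endothelial markers, led by Flt1, summed to 183.6 to 240.98 and 192.5 to 247.7 CPM, and the astrocyte markers, led by Slc1a2, to 3727 to 4068 and 3469 to 3810 CPM. The oligodendrocyte markers, led by Mbp, summed to 4651 to 5330 and 4589 to 6459 CPM, the choroid plexus markers, led by Ttr, to 517.4 to 695.8 and 529.3 to 757.9 CPM, and the red blood cell markers, led by Hbb-b1, to 57.5 to 198.3 and 89.7 to 256.9 CPM. The groups overlapped in each of these sums, and the part of cell composition in the mitochondrial values was not tested.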

How the data were processed

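RNA of the cerebrum of 4 control and 7 mutator mice was sequenced. According to the submitters' processing notes and the paper, alignment to mm9 was done by the authors with TopHat2 2.0.6 and Bowtie2 2.0.2.0, reads were counted on Ensembl genes with HTSeq 0.5.3p9, and the deposited counts per gene are not normalized. Gene positions come from a later annotation release on the same build. The deposited table of read totals, whose percent and read values are the authors' own, was used for depth alone. The deposited exon-bin counts of 10 mice held 43 bins on mitochondrial genes, all at 0 in each mouse, and were not tested. The authors' comparison tables hold their own fold changes and adjusted p-values and were not used.

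Counts were tested over all genes by the quasi-likelihood test of edgeR 4.0.16 (R 4.3.3), fitted robustly with TMM factors, its filterByExpr, Benjamini-Hochberg adjustment, a threshold of 0.05 and no covariate, after the method was tested on simulated data. TMM factors were 0.974 to 1.02. Each standard error is the size of the log2 fold change divided by the root of F, and CPM are scaled with the TMM factors. Ratios between classes were compared by 2-sided exact permutation tests over 330 assignments where each class had at least 10 counts in every mouse, and p was adjusted over the 7 of 8 ratios that allowed it. No p is given for the share of all counts, a score over all members, although a test of it had been planned. The p-values of the ratios are given as those of single values per mouse. Nuclear copies of at least 500 bases and 95% identity were found with BLAST 2.17.0 on mm9, and a 100-base stretch was taken as having a copy if it occurs exactly in any BLAST match, shorter or less alike ones included. Sequences were read from the same build.

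The members, gene lists and ratios were chosen with earlier results of these data known. All 37 genes are accounted for, with statistics for those past the threshold, mt-Nd6 with its neighbours mt-Nd5 and mt-Cytb, the rRNAs, mt-Co2 and mt-Tp, and, of the nuclear list, those called and the 4 with the lowest p. Tefm, Slirp, Prorp, Trmt10c and the Mterf genes are listed under older symbols, matched with the RefSeq table of GRCm38.p6. Values of other genes, and the standard errors of mt-Tc and mt-Tn, were added after they had been seen. The alternatives were DESeq2 1.42.0, RLE and upper-quartile factors, library sizes from nuclear genes or from mitochondrial genes alone, no filter (at least 1 count), a mean count of at least 10, each mouse left out, and changes to the genes in the classes.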

Additional observations from a re-analysis of the deposited data

Results flagged for a closer look

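The mice that stood apart from their own group, by Dixon's ratio of the gap beside the outermost mouse to the range of all, were looked for in 58 sets of values. In 6 the ratio, given in parentheses, was above its critical value, where chance gives about 1 in 20, or 2.90. Among genes in the stretch copied on chromosome 1, whose counts are uncertain, mutator mouse 240 was highest for mt-Atp6 (0.574), at 5.39 CPM against 2.98 to 4.01 CPM in the other mutators. Control mouse 239 was lowest for mt-Co2 (0.868), at 0.144 CPM against 0.461 to 0.509 CPM. Mutator mouse 207 was lowest for mt-Co3 (0.633), at 0.798 CPM against 1.27 to 1.54 CPM. Control mouse 246 was highest for mt-Nd3 (0.876), at 14.4 CPM against 9.51 to 10.1 CPM. The 4 mice concerned differ, and mouse 246 had the smallest library of all.

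Mutator mouse 248 was highest for the pseudogene Gm13340 (0.729), at 21.8 CPM against 8.48 to 12.1 CPM. Its gene counts per listed aligned read (0.988) were 3.00, while the other mutators had 0.744 to 0.772, and its listed read total may not cover the whole library. Without it the log2 fold change of mt-Tp was 5.13, close to the 5.23 with it.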

How the results depend on the processing

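The log2 fold change of mt-Tp stayed between 5.09 and 5.40 over 18 alternatives, with an adjusted p of at most 0.00069. Its rank by p was 1 in 12 of the 18, 2 without mouse 237, 207, 211 or 217, 5 with no filter and 8 with the sum of the mitochondrial counts as library size. The number of mitochondrial genes past the threshold was 1 in 16 of the 18. It was 3 with DESeq2, where mt-Nd5 (0.23, adjusted p = 0.0349) and mt-Co2 (4.15, adjusted p = 0.0152) were added, and 2 with no filter, where mt-Nd5 was added (edgeR adjusted p = 0.0440). Over all genes, 615 of 17377 passed with DESeq2 and 346 of 28103 with no filter, against 223 of 17983 with edgeR and its filter. The cause was not tested. No gene of the nuclear list was called in any of the 18.

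Log2 fold changes near 0 changed sign. With 1 mouse left out, they ranged from -0.024 to 0.19 for mt-Atp6, from -0.011 to 0.17 for mt-Nd1, from -0.076 to 0.14 for mt-Nd2, from -0.15 to 0.051 for mt-Nd4, from -0.13 to 0.075 for mt-Tn and from -0.060 to 0.14 for Gm10222. With the sum of the mitochondrial counts as library size, mt-Nd2 had -0.037. Others kept their sign but moved. With 1 mouse left out, the range was 0.14 to 0.32 for mt-Nd6 and 0.15 to 0.27 for mt-Nd5, lowest without mouse 239 in both, and -0.15 to -0.057 for mt-Rnr1, nearest 0 without mouse 246. It was -0.25 to -0.12 for mt-Cytb, 0.26 to 0.67 for mt-Co3, 0.058 to 0.25 for mt-Nd3, 0.067 to 0.18 for mt-Tc and 0.045 to 0.20 for Gm10925. Apart from mt-Nd5, named above, none of these had an adjusted p under 0.05 with edgeR or DESeq2.

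With 1 mouse left out, the log2 difference of mt-Nd6 over the heavy-strand mRNAs ranged from 0.13 to 0.25 and that of mt-Nd6 over mt-Nd5 from -0.014 to 0.061. For mt-Rnr1 over mt-Rnr2 it was 0.023 to 0.057, and for mt-Nd5 plus mt-Cytb over mt-Nd1 plus mt-Nd2 -0.12 to -0.016. The difference of the rRNAs over the heavy-strand mRNAs ranged from -0.24 to -0.17, and without mouse 249 it passed the threshold (exact permutation test, adjusted p = 0.0444). With Gm10925 and Gm10222 added to the heavy-strand mRNAs, the difference of mt-Nd6 was 0.19 and no longer passed (exact permutation test, adjusted p = 0.0583). With the mRNAs in the copy on chromosome 1 left out, or mt-Co1 left out, it was 0.26 and 0.27 (exact permutation test, adjusted p = 0.00707 in both). The same alternatives brought the difference of the rRNAs nearer to 0, to -0.14 and -0.13 (exact permutation test, adjusted p = 0.223 and 0.249). The cause was not tested. With mt-Tp left out, the difference of the tRNAs was -0.0043, as only mt-Tc and mt-Tn then had counts and both were close to equal between the groups. The difference in the share of all counts lay between 0.029 and 0.42 percentage points with 1 mouse left out, was 0.26 with mRNAs only and was 0.31 with both copies added. The planned exon-bin alternatives gave no value, as the mitochondrial bins were at 0. No paired analysis was possible because replicate numbers were given in accession order and pair no mice.

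Counts on mt-Tp in the smallest control library rest on 74 reads and those on mt-Co2 in mouse 239 on 9. The genes mt-Co2, mt-Atp8, mt-Atp6, mt-Co3 and mt-Nd4l, with no stretch free of a nuclear match, cannot be measured from these counts, nor can the 19 tRNAs at 0, and mt-Nd3 rests on 3 stretches.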
